A study of Mus musculus with 23 samples.

Results

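The genes described here encode the 3 large enzyme families of drug, sterol and lipid metabolism: the cytochromes P450 (P450), the UDP-glucuronosyltransferases (UGT) and the cytosolic and kappa glutathione transferases (GST). They were taken by name, as the symbols that begin with Cyp, a number and a letter, with Ugt and a number, or with Gst and one of the class letters a, k, m, o, p, t and z, without pseudogene names. Of 18512 symbols, 109 matched (71 P450, 18 UGT and 20 GST), and the 40 with at least 10 counts in 7 or more mice are reported as members: 17 P450, 10 UGT and 13 GST. Only 25 of the 109 had 10 counts in every mouse, and all 109 had at least 1 count in some mouse. The samples were 23 C57BL/6 mice of 6 to 8 weeks of age, in 3 groups. The baseline group held 8 uninjured mice (4 female, 4 male), and the other groups were killed on day 7 (4 female, 4 male) and on day 14 (3 female, 4 male) after pancreatitis was induced with caerulein, a cholecystokinin analogue that overstimulates acinar cells, at 50 µg/kg in 8 hourly injections on each of 2 days. No genotype or transgene was involved, RNA came from whole tissue of the pancreatic head, and the labels name no saline-injected control, so injection and injury cannot be told apart.

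P450 enzymes are haem proteins that insert an oxygen atom into their substrates with electrons from P450 reductase or, in mitochondria, from adrenodoxin. UGT enzymes sit in the endoplasmic reticulum and join glucuronic acid to the oxygen or nitrogen of bilirubin, steroids, bile acids and drugs, whereas GST enzymes join glutathione to electrophiles. Liver and intestine hold most of the members that clear foreign compounds, and acinar cells of the pancreas are known to express a smaller set.

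Total counts were 7059890 to 9567446 per mouse, of which the 20 most abundant genes took 55.3% to 71.2%. All 8 acinar markers were detected in each group, with a summed level of 314132 to 469452 CPM (counts scaled to a common library size) at baseline, against 185033 to 282168 at day 7 and 281285 to 340641 at day 14. At day 7, 4 of 8 acinar markers were lower, and 7 of 8 fibroblast, 7 of 8 macrophage and 4 of 8 islet markers were higher, as were 2 of 8 ductal markers. At day 14, 3 of 8 fibroblast markers and 1 of 2 measured hepatocyte markers were higher. Their part in the results below was not tested, and in whole tissue fewer cells of a type and less RNA per cell cannot be told apart. Levels are CPM after TMM scaling, which sets aside the few dominant genes. When total counts were used instead, the median of all genes moved from 0.02 to 0.48 on the log2 scale at day 7 and from 0.01 to 0.22 at day 14, so changes are to be read relative to those medians. Mouse 19 (day 14, female) and, less so, mouse 21 (day 14, male) stood apart in liver-type transcripts, and mice 5, 10, 15 and 21 stood apart in lymphocyte markers. Both sets are described with the genes they touch.

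By level per length, in CPM per kilobase (kb) of annotated exon, GST genes led the list. *Gstp1*, the pi-class enzyme, stood first at 114 ± 15.1 CPM per kb (SD, n = 23), followed by the mu-class genes *Gstm2* at 53.7 ± 7.17 and *Gstm1* at 31.3 ± 4.26. The range of *Gstp1* (85.2 to 154) did not overlap that of *Gstm2* (40.2 to 67.4), but *Gstm1* could not be set apart from the next gene. That gene was *Cyp39a1*, an oxysterol hydroxylase of the bile acid pathway, at 28.2 ± 5.86 CPM per kb. Its range (15.4 to 38.2) lay above that of the next P450, *Cyp20a1*, which has no settled substrate and reached 6.44 ± 0.92 (at most 8.28). *Cyp2j6*, of the CYP2J subfamily, followed at 5.74 ± 0.78 and *Cyp4f13*, of the fatty acid hydroxylases, at 4.67 ± 0.58. Among the UGT genes *Ugt2b34* led at 8.72 ± 3.00 CPM per kb, and the next symbols were *Ugt1a6a* at 1.68 ± 0.98, *Ugt1a1* at 1.44 ± 0.95 and *Ugt1a5* at 1.42 ± 0.89, whose ranges overlapped almost fully. *Gsto1*, the omega-class enzyme, completed the top of the GST list at 17.3 ± 1.72.

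**Figure D1:**
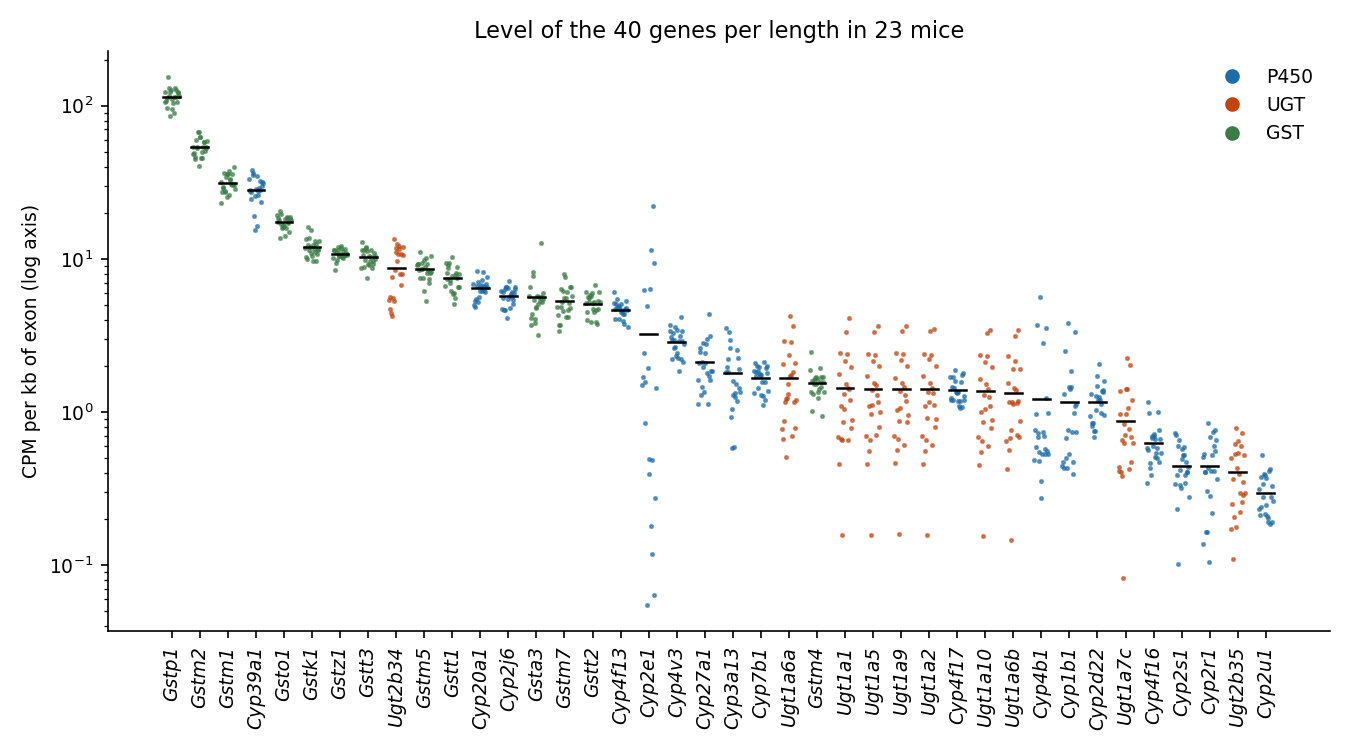
Level of each of the 40 members per length in 23 mice (CPM per kb of exon, log axis). Points are mice (values of 0 are not drawn), black lines are means, and colours mark the family. *Gstp1* sits highest at a mean of 114 CPM per kb, and *Cyp2e1* spreads most widely, from 0 to 22.1.

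The first comparison asked which members differed between the uninjured pancreas and day 7 after injury. *Ugt2b34* rose, *Cyp2d22* rose and *Cyp3a13* fell, and no other member had an adjusted p no higher than 0.05 together with a change of 1.5-fold or more (edgeR quasi-likelihood test, Benjamini-Hochberg over 12195 genes). The 2 of 40 members called higher stand beside 3.82% of all genes tested, and the 1 of 40 called lower stands beside 1.31%. With the adjusted p alone, 5 of 40 members passed, against 18.6% of all genes. The members' median log2 fold change was 0.08, against 0.02 over all genes, so the set as a whole lay near the rest of the transcriptome. By family the medians were 0.02 for 17 P450, 0.91 for 10 UGT and -0.09 for 13 GST, and 8 of the 10 UGT symbols share 1 locus (below).

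*Ugt2b34* encodes a glucuronosyltransferase of the 2B subfamily, the group that conjugates steroids and bile acids. It lies on the minus strand at chr5:86889767-86906937 (mm10, GRCm38), and 99.1% of the 75-base windows of its exons occurred in no other gene. Its level was 18.4 to 32.6 CPM at baseline (median 23.2), 36.3 to 58.0 at day 7 (median 49.6) and 29.1 to 51.6 at day 14 (median 45.7). Every day 7 mouse was above every baseline mouse, and 6 of 7 day 14 mice were. It was the 1 member of 40 whose day 7 mice all lay above baseline, as did 1.16% of all genes, and no member did so at day 14, against 0.435% of all genes. The mean was 23.1 ± 4.46 CPM (SD, n = 8) at baseline, 48.5 ± 6.99 (n = 8) at day 7 and 41.7 ± 8.82 (n = 7) at day 14. The log2 fold change was 1.07 ± 0.13 (SE) at day 7, a 2.10-fold rise (adjusted p = 5.76e-06, edgeR), and 0.85 ± 0.14 at day 14 (adjusted p = 0.00104). Day 14 did not differ from day 7 past the threshold (log2 -0.22 ± 0.13, adjusted p = 0.465). Within females the day 7 rise was 1.15 ± 0.19 on the log2 scale and within males 0.99 ± 0.19, from 1 fit of all 23 mice. The adjusted p were 0.00169 and 0.00289, so the day 7 call held in each sex. At day 14 the females gave 1.01 ± 0.21 (adjusted p = 0.0434) and the males 0.71 ± 0.19 (adjusted p = 0.214), so that call was made in females and not in males, and the difference between the sexes (0.29 ± 0.28) did not pass. The other measured gene of the 2B subfamily, *Ugt2b35*, had 0.37 to 2.09 CPM at baseline, against 0.60 to 2.63 at day 7 and 0.87 to 2.45 at day 14, with groups that overlapped throughout (day 7 log2 0.33 ± 0.34, adjusted p = 0.525).

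*Cyp3a13* is a mouse CYP3A enzyme, from the subfamily that oxidises a broad range of drugs and steroids. It lies on the minus strand at chr5:137892932-137921619, and every 75-base window of its exons was its own. Its level was 5.37 to 10.4 CPM at baseline (median 7.14), 1.72 to 4.71 at day 7 (median 3.43) and 3.48 to 7.55 at day 14 (median 4.48). All 8 day 7 mice lay below all 8 baseline mice, the 1 member of 40 to do so against 1.59% of all genes, and 4 of 7 day 14 mice lay below baseline. The log2 fold change was -1.23 ± 0.20 at day 7, a 2.35-fold fall (adjusted p = 0.000158, edgeR), and it was -0.54 ± 0.21 at day 14 (adjusted p = 0.224). The difference of day 14 from day 7 was 0.69 ± 0.21 on the log2 scale and missed the threshold (adjusted p = 0.0981). In females and in males the day 7 change was -1.26 ± 0.31 and -1.22 ± 0.30 on the log2 scale, with adjusted p of 0.0205 and 0.0129.

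*Cyp2d22*, a CYP2D enzyme at chr15:82370527-82380260 (minus strand), belongs to the subfamily that oxidises many basic drugs. It had 1.91 to 3.62 CPM at baseline (median 2.30), 2.84 to 5.70 at day 7 (median 3.49) and 2.65 to 4.39 at day 14 (median 3.75). Here the groups overlapped: 3 of 8 day 7 mice and 4 of 7 day 14 mice exceeded every baseline mouse. It rose at day 7 by 0.68 ± 0.17 on the log2 scale, or 1.60-fold (adjusted p = 0.00463), and day 14 gave 0.52 ± 0.17 (adjusted p = 0.141). The values rest on 11 to 65 counts per mouse, and without mouse 14, its highest, the day 7 log2 fold change was 0.57, under the fold threshold. In males the day 7 change was 0.89 ± 0.24 (adjusted p = 0.0192) and in females 0.49 ± 0.23 (adjusted p = 0.236), so the call was made in males alone. A difference between the sexes was not shown (-0.41 ± 0.33, adjusted p = 0.947).

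**Figure D2:**
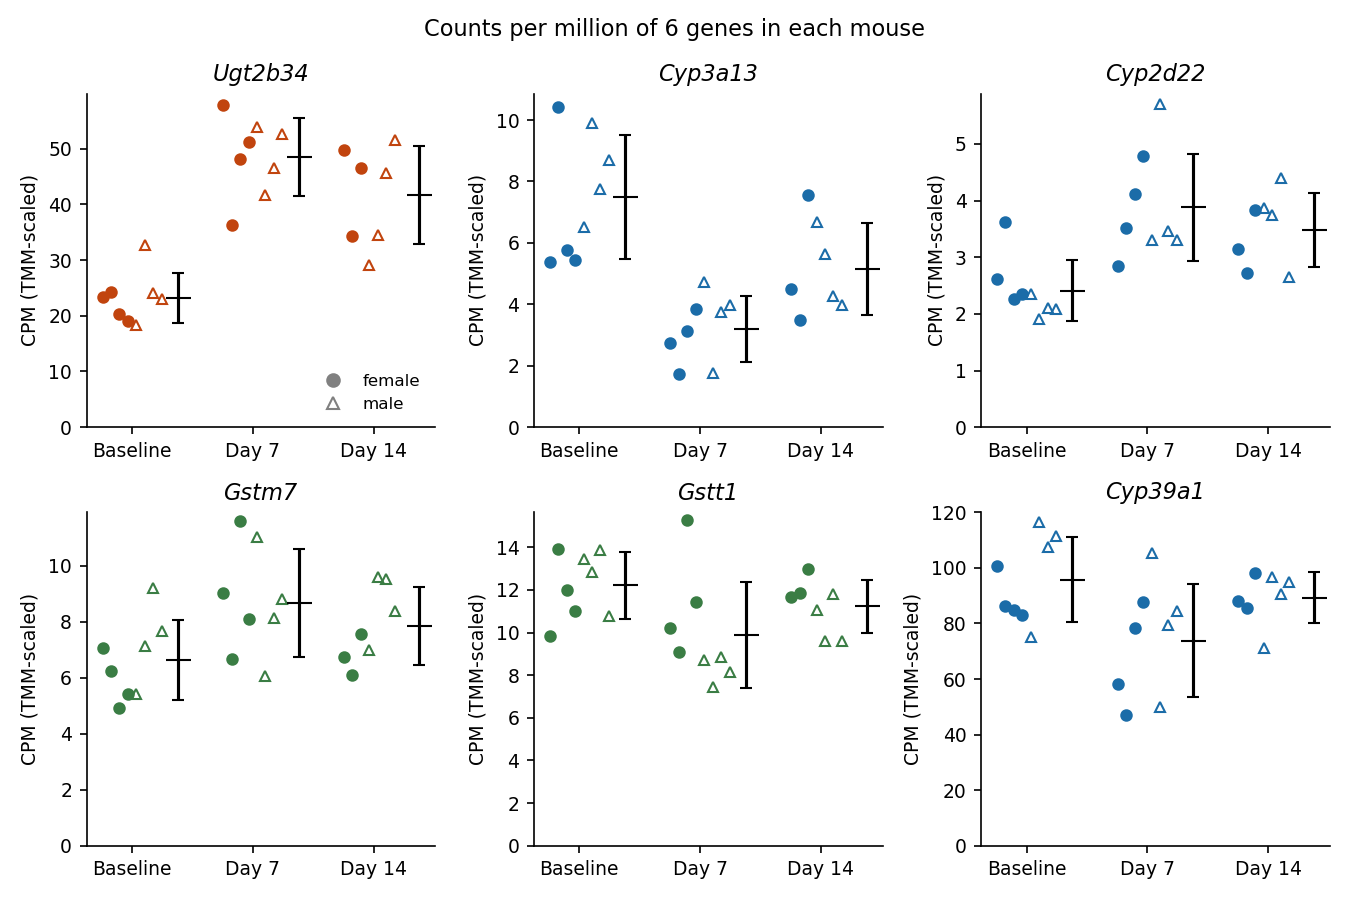
CPM (TMM-scaled) of 6 members in each mouse by group. Filled circles are females, open triangles are males, and the black bar with whiskers is the mean ± SD. All day 7 mice lie above baseline for *Ugt2b34* and below baseline for *Cyp3a13*, whereas the groups of the other 4 genes overlap.

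The promoters of the pair that separated the day 7 mice completely, and that of the most abundant member, are shown because these are the genes whose values carry the day 7 and level results. Each is the 250 bases upstream of the start in RefSeq (GRCm38.p6), written 5′ to 3′ on the gene's strand, with matches of 4 short motifs in capitals, searched on both strands. The motifs were GTTAAN (part of the site of HNF1, a liver and pancreas factor), TGANTCA (AP-1), GCGTG (the core bound by the aryl hydrocarbon receptor) and TGACNNNGC (antioxidant response element, bound by NRF2). In *Ugt2b34* the capitals mark an HNF1 match read on the opposite strand, whose first letter lies 66 bases upstream of the start (chr5:86906938-86907187, minus strand).
Ugt2b34: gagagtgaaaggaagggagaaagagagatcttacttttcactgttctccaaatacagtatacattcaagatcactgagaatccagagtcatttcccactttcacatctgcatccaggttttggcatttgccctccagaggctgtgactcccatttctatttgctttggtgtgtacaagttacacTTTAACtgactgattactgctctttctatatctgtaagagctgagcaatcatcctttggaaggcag
In *Cyp3a13* they mark an AP-1 match 91 bases upstream (chr5:137921620-137921869, minus strand).
Cyp3a13: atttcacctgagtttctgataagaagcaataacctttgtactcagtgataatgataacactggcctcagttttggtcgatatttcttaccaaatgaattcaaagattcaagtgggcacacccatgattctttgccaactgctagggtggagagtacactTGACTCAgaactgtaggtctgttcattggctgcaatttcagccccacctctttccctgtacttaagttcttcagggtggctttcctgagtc
In *Gstp1* they mark an AP-1 match 74 bases and a GCGTG 13 bases upstream (chr19:4037913-4038162, minus strand).
Gstp1: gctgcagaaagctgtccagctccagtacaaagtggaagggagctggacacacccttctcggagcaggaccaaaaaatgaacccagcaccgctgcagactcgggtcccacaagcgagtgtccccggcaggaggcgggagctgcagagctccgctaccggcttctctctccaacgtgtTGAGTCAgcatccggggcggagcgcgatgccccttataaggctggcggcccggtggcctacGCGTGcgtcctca
Of 33 members matched to a RefSeq promoter, 11 held the HNF1 motif, 7 the AP-1 motif, 8 GCGTG and 3 the antioxidant element. The shares over all 32851 promoters were 21.6%, 6.75%, 28.2% and 10.2%. These shares count promoters singly, whereas a member counted if any of its promoters matched (38 promoters for the 33 members). The unlike units favour the members. A match describes these letters only.

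The *Ugt1a* symbols had the largest UGT fold changes after *Ugt2b34*, but they are not separate measurements. At this locus (plus strand, chr1:88055388-88220002) each transcript joins its own first exon to downstream exons that all share, and 54.6% to 90.7% of the exon bases of a symbol lay in another *Ugt1a* gene. The counts of *Ugt1a10*, *Ugt1a9*, *Ugt1a5*, *Ugt1a2* and *Ugt1a1* differed by at most 3 in 22 of 23 mice. Summed over the mice, the lowest symbol of each mouse gave 641 counts. Above that, *Ugt1a6a* had 204 more and *Ugt1a7c* 146 more, and the other 6 symbols had 8 to 36 more. *Ugt1a6a* was the highest symbol, alone or tied, in 16 of 23 mice and *Ugt1a7c* in 10.

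As 1 locus, the lowest symbol had 0.35 to 5.31 CPM at baseline (median 1.49), 1.82 to 7.36 at day 7 (median 3.30) and 1.35 to 7.66 at day 14 (median 2.47), with overlap in both comparisons. The 8 symbols gave day 7 log2 fold changes of 0.75 to 0.99 and adjusted p of 0.0977 to 0.205, so none passed. This rested on mouse 4: without that baseline female the changes were 1.03 to 1.27, and 4 symbols (*Ugt1a10*, *Ugt1a9*, *Ugt1a7c* and *Ugt1a5*) passed both thresholds. In males the changes were 1.49 to 1.88 and in females -0.02 to 0.14, and 1 symbol in males (*Ugt1a7c*, adjusted p = 0.0381) and none in females passed. The test of that difference had an unadjusted p under 0.05 for 7 of 8 symbols and an adjusted p of at least 0.913, so a difference between the sexes was not shown. Baseline females 3 and 4 had 26 and 43 counts of the lowest symbol, against 2 to 13 in the other baseline mice. These mice and day 7 male 14, with 84 counts, also had the highest summed levels of 4 mesothelial markers, at 24.5, 27.4 and 24.8 CPM, where the other 20 mice had 5.91 to 15.4. Mice 15, 12, 10, 23, 13 and 16 had more counts of the lowest symbol than mouse 3. They had 55, 44, 37, 35, 34 and 29 counts in that order. Their mesothelial sums were 14.2, 14.1, 8.77, 10.5, 15.4 and 11.8 CPM. The 4 mesothelial markers had a median log2 change of 0.01 at day 7, with none called. The part of mesothelium in the locus was not tested. Mouse 19, at 72 counts of the lowest symbol, had a mesothelial sum of 10.5 CPM and was the 1 mouse in which *Ugt1a1*, the bilirubin-conjugating form of liver, was the highest symbol, at 86 counts.

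**Figure D3:**
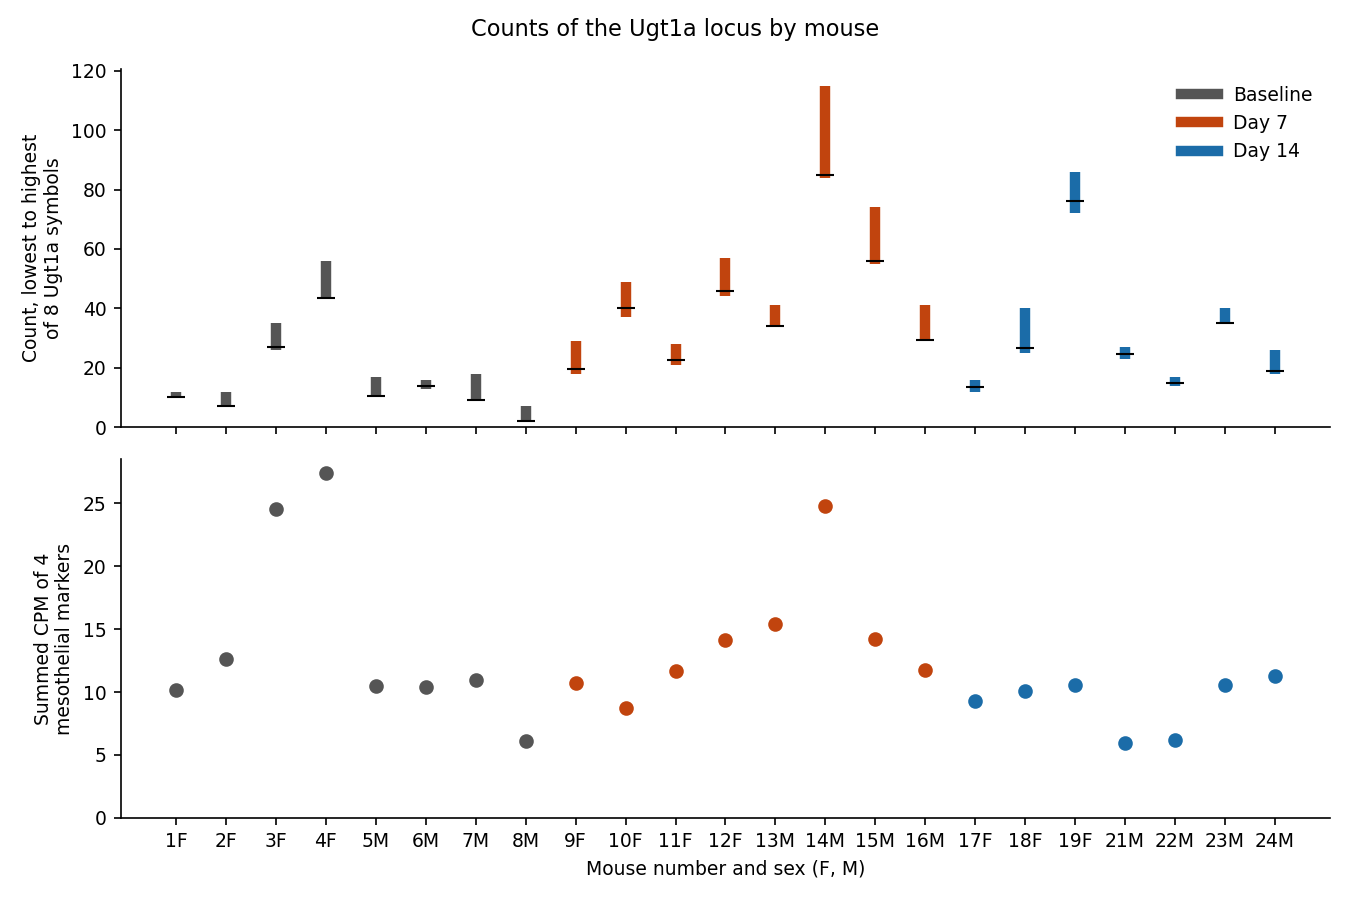
Counts of the 8 *Ugt1a* symbols in each mouse (top, bar from the lowest to the highest symbol, black line at the median) and the summed CPM of 4 mesothelial markers (bottom), by mouse number and sex. Mice 3, 4 and 14 stand highest in the lower panel, and mouse 14 reaches 115 counts in the upper.

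**Figure D4:**
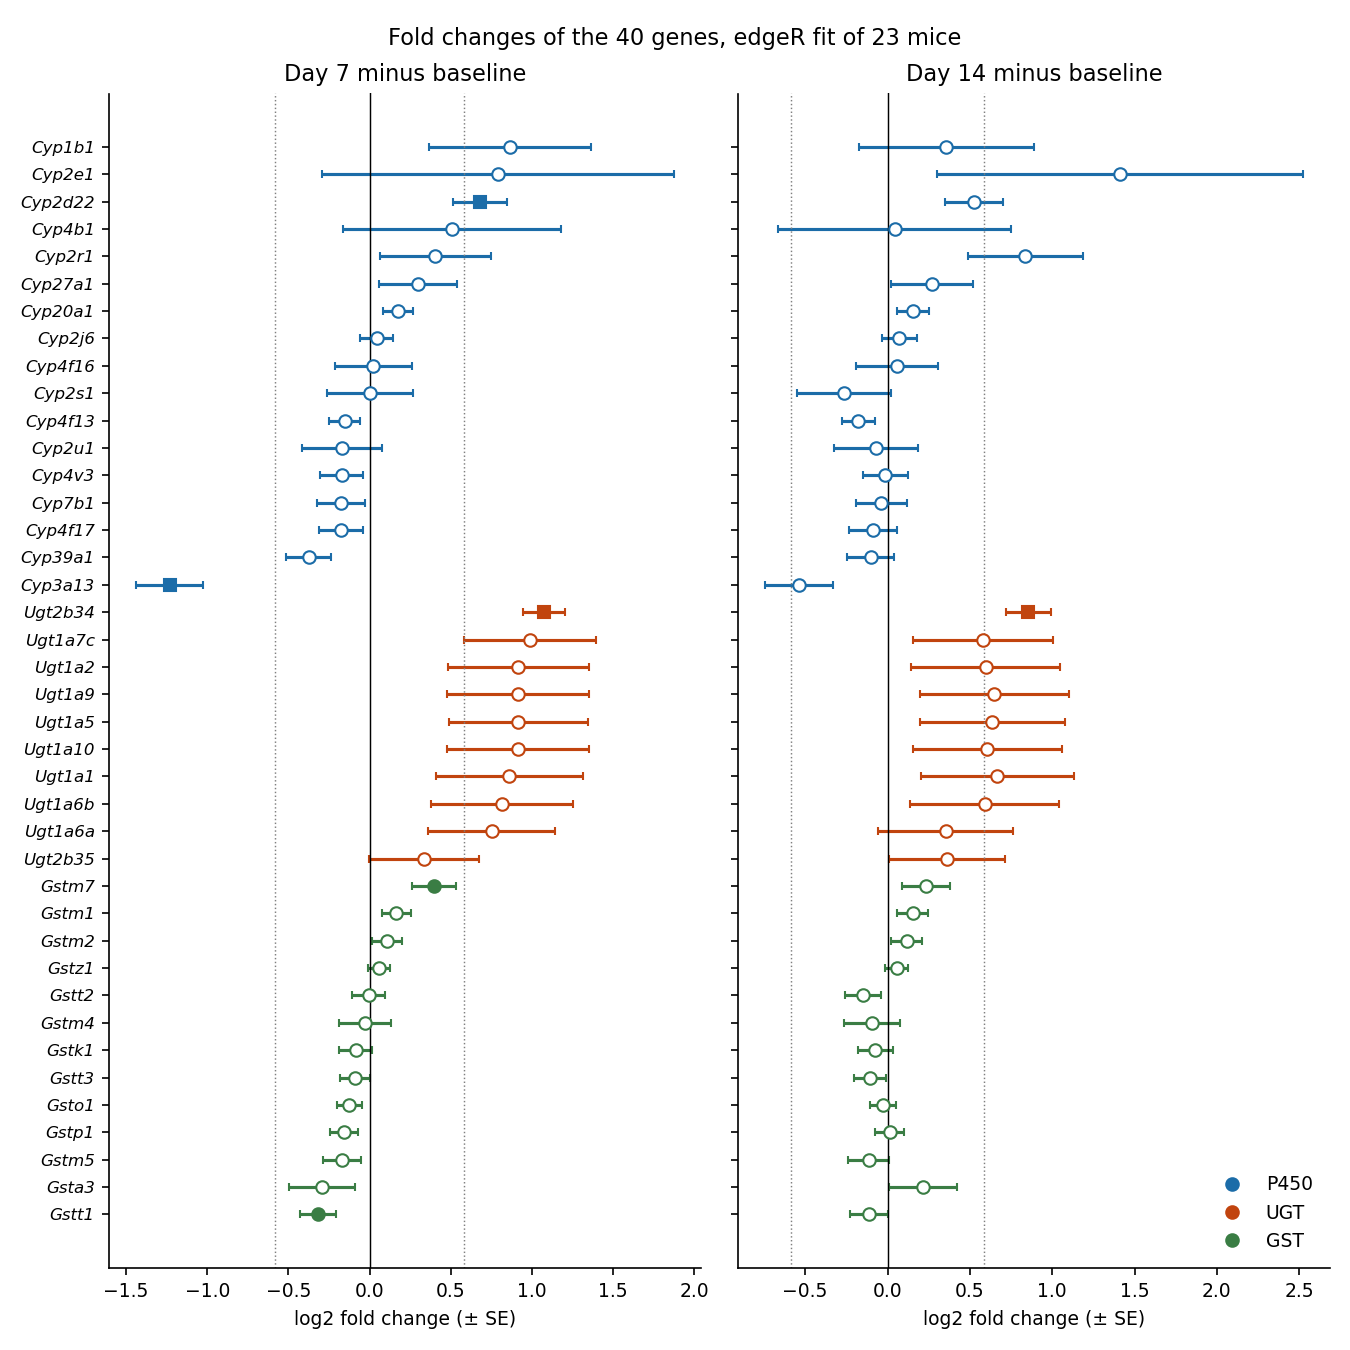
Log2 fold change of each member at day 7 and day 14 against baseline, with the SE from the edgeR fit. Colours mark the family, filled symbols an adjusted p of at most 0.05, squares a call with both thresholds, and dotted lines the 1.5-fold limits. *Ugt2b34* is called at both times, and *Cyp3a13* and *Cyp2d22* at day 7 alone.

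The GST members moved little. *Gstm7*, a mu-class enzyme, had 4.93 to 9.20 CPM at baseline, against 6.05 to 11.6 at day 7 and 6.09 to 9.61 at day 14, and it rose at day 7 by 0.40 ± 0.14 on the log2 scale (adjusted p = 0.0428). *Gstt1*, of the theta class, had 9.82 to 13.9 CPM at baseline, against 7.45 to 15.3 at day 7 and 9.61 to 12.97 at day 14. It fell at day 7 by 0.32 ± 0.11 on the log2 scale (adjusted p = 0.0439), and with total count scaling its value was 0.12, still under that scaling's median of 0.48 over all genes. Over both sexes the 2 changes were under 1.5-fold, the groups of both genes overlapped, and both lost the adjusted p in several alternatives. In males *Gstt1* changed by -0.63 ± 0.14 (adjusted p = 0.0081), which passed both thresholds, and in females by -0.04 ± 0.14. The difference between the sexes had an adjusted p of 0.68.

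The 4 GST genes of highest level had log2 changes between -0.16 and 0.16 at both times. *Gstp1* had 79.3 to 126 CPM at baseline, against 69.9 to 104 at day 7 and 87.4 to 107 at day 14, with log2 changes of -0.16 ± 0.09 and 0.01 ± 0.09 (adjusted p = 0.213 and 0.98). *Gstm2* gave 0.11 ± 0.09 and 0.12 ± 0.09, *Gstm1* 0.16 ± 0.09 and 0.15 ± 0.09, and *Gsto1* -0.12 ± 0.08 and -0.03 ± 0.08, with adjusted p of 0.21 or more in each case. *Gstz1*, the maleylacetoacetate isomerase of tyrosine breakdown, kept to 18.2 to 26.0 CPM over all 23 mice. Together with *Gsta3*, *Gstk1*, *Gstm4*, *Gstm5*, *Gstt2* and *Gstt3* it had a day 7 log2 change between -0.29 (*Gsta3*) and 0.06 (*Gstz1*), with adjusted p of 0.329 or more.

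The other P450 genes are given by role. Among those of sterols, *Cyp39a1* had 75.1 to 117 CPM at baseline (median 93.4), 47.1 to 105 at day 7 (median 79.0) and 71.3 to 98.2 at day 14 (median 90.8). Of the day 7 mice 3 lay below all baseline mice, and the day 7 change of -0.37 ± 0.14 on the log2 scale missed the threshold (adjusted p = 0.0645). *Cyp7b1*, another oxysterol hydroxylase, and *Cyp27a1*, the mitochondrial sterol hydroxylase, gave -0.17 ± 0.15 and 0.30 ± 0.24 at day 7 (adjusted p = 0.434 and 0.407). *Cyp2r1*, a vitamin D hydroxylase, was scarce at 2 to 24 counts, with day 14 at 0.84 ± 0.35 on the log2 scale (adjusted p = 0.276). No baseline mouse had more than 8 counts of it, so it met the count rule through the later groups alone and its positive values are favoured by that rule. The 8 measured members of the fatty acid and eicosanoid group had a median log2 change of -0.08 at day 7, and none passed. They ranged from -0.18 (*Cyp4f17*) to 0.51 (*Cyp4b1*), with adjusted p of 0.266 or more. In that group *Cyp2j6* (0.04 ± 0.10) and *Cyp4f13* (-0.15 ± 0.09) were the most abundant per kb of exon. *Cyp20a1* had 10.7 to 18.4 CPM at baseline and 12.5 to 18.3 at day 7, an overlapping pair of ranges (log2 0.18 ± 0.09, adjusted p = 0.19).

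*Cyp1b1*, *Cyp4b1* and *Cyp2e1* ranged widely within each group. *Cyp1b1*, which oxidises oestrogens and polycyclic hydrocarbons, had 2.26 to 12.9 CPM at baseline (median 2.53), 2.79 to 19.9 at day 7 (median 7.43) and 2.07 to 17.4 at day 14 (median 5.10). Its day 7 change was the largest positive one among P450 genes, at 0.87 ± 0.50 on the log2 scale, but did not pass (adjusted p = 0.244). The highest mouse of each group was mouse 5, 10 or 21. *Cyp4b1* was at 57, 143, 57 and 62 counts in mice 5, 10, 15 and 21, and *Cyp2e1*, which oxidises ethanol, at 94, 121, 225 and 161. These 4 mice had summed levels of 6 lymphocyte markers of 40.8 to 74.7 CPM, where the other 19 had 0.17 to 12.97. Their sums over 8 adipocyte markers were 96.7 to 220 CPM, and mouse 14, at 110 CPM of adipocyte markers, had 134 counts of *Cyp2e1*. The part of fat or lymphoid tissue was not tested. Without mice 5, 10, 15 and 21 the *Cyp4b1* day 7 change turned from 0.51 ± 0.67 to -0.45 ± 0.30 on the log2 scale (adjusted p = 0.641 and 0.34), while the 3 calls of day 7 were made again.

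The comparison of baseline with day 14 called 1 of 40 members, *Ugt2b34*, against 0.787% of all genes. The members' median log2 fold change was 0.09, against 0.01 over all genes. By family it was 0.04 for P450, 0.60 for UGT and -0.03 for GST. Of the 10 UGT symbols 8 share the *Ugt1a* locus, with day 14 means of 3.21 to 3.90 CPM. Without mice 19 and 21 these means were 2.46 to 3.16 CPM, against 2.10 to 3.04 at baseline. The largest value, 1.41 ± 1.11 for *Cyp2e1* (adjusted p = 0.654), rested on mouse 19 (382 counts) and mouse 21 (161 counts), since without them it was -2.05 ± 1.21. *Gsta3*, of the alpha class, had 185 counts in mouse 19 and 41 to 88 in the others, and its day 14 change went from 0.22 ± 0.21 to -0.05 ± 0.16 without both mice. *Ugt2b34* kept its day 14 call without them, at 0.90 ± 0.14 (adjusted p = 0.00113).

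Between day 7 and day 14, 0 of 40 members were called with edgeR, against 0.377% of all genes. Of these 2 had an unadjusted p under 0.05, and DESeq2 also called 0. The smallest adjusted p was that of *Cyp3a13* given above, and the next was 0.239, for *Gsta3* (0.51 ± 0.20).

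Whether the members differed between the sexes was asked over all time points. Females against males gave 0 of 40 calls with edgeR, against 0.23% of all genes, with 1 member under an unadjusted p of 0.05 and 0 calls by DESeq2. *Gstt2* had the smallest adjusted p (0.433). For the interaction of sex with the day 7 change, judged by the adjusted p alone, 0 of 40 members passed, against 0.00773% of 12933 genes, with 8 under an unadjusted p of 0.05. Those 8 were *Gstt1* and 7 *Ugt1a* symbols, which share 1 locus and are not separate measurements. For the day 14 interaction 0 of 40 passed, against 0% of all genes, with 1 under an unadjusted p of 0.05. DESeq2 called 0 members in each.

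The 69 symbols that did not reach the count rule included many clearance enzymes of liver, and 1 mouse held far more of their counts than any other. Mouse 19 had 1435 counts over the 69 symbols and mouse 21 had 200, where the other 21 mice had 33 to 140. In mouse 19, 43 of the 69 symbols had their highest count. A set of 25 symbols, 23 of them P450, had 0 counts in all 21 other mice and at least 1 in mouse 19. All 109 matched symbols had a count in some mouse. A symbol at 0 in those 21 mice therefore had to have a count in mouse 19 or 21. A count of 0 allows up to 3 counts in a library.

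*Cyp3a11*, the main CYP3A enzyme of mouse liver, had 259 counts in mouse 19, 25 in mouse 21 and at most 1 in any other. *Cyp2c29* had 88, 7 and 0 counts in the same order, *Cyp2c50* 53, 5 and at most 1, *Ugt2b1* 42, 2 and at most 1, and *Cyp2a12* 36, 2 and 0. *Cyp7a1*, the rate-limiting enzyme of bile acid synthesis, had 8 counts and *Cyp8b1*, which sets the kind of bile acid made, 18 in mouse 19. Albumin (*Alb*) went with them, at 3421, 230 and at most 28 counts, and so did *Fga* (365, 24 and 0) and *Cps1* (477, 41 and at most 1). The 10 hepatocyte markers summed to 663 CPM in mouse 19 and 61.8 in mouse 21, and to 9.01 to 32.1 in the other 21 mice. Most of the sum in those 21 mice was *Ttr*, as in mouse 1 (26.9 of 29.5 CPM) and mouse 11 (29.5 of 32.1). In mouse 19 *Ttr* was 47.6 of 663 CPM and in mouse 21 15.7 of 61.8. Mouse 19 was also highest in the sum of 8 enterocyte markers, at 182 CPM against 62.3 to 97.1 in the other 22 mice. These are the 8 of 10 listed symbols that the data held. The list includes *Apob*, which liver makes too. Its 5 smooth muscle markers summed to 74.8 CPM, second to mouse 15 at 101. The part of these tissues was not tested.

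Some liver P450 genes are known to differ by sex in adult mice. The symbols *Cyp2c69* (85 counts), *Cyp2c40* (46), *Cyp2b9* (33) and *Cyp2a4* (26), known as female-type in liver, had 0 counts in mouse 21. *Cyp2d9*, known as male-type, had 9 counts in mouse 21 and 4 in mouse 19, and 0 in the other 21 mice. Other symbols were at 0 in mouse 21 as well, among them *Cyp2c37* (40 counts in mouse 19), *Cyp2c68* (35), *Cyp4a14* (21) and *Cyp1a2* (15), and its hepatocyte markers summed to 61.8 CPM against 663 in mouse 19. With that and 1 mouse of each sex, no sex pattern can be read from these counts. *Cyp2c69* and *Cyp2c40* share sequence with neighbours, with 57.4% and 54.1% of windows unique.

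**Figure D5:**
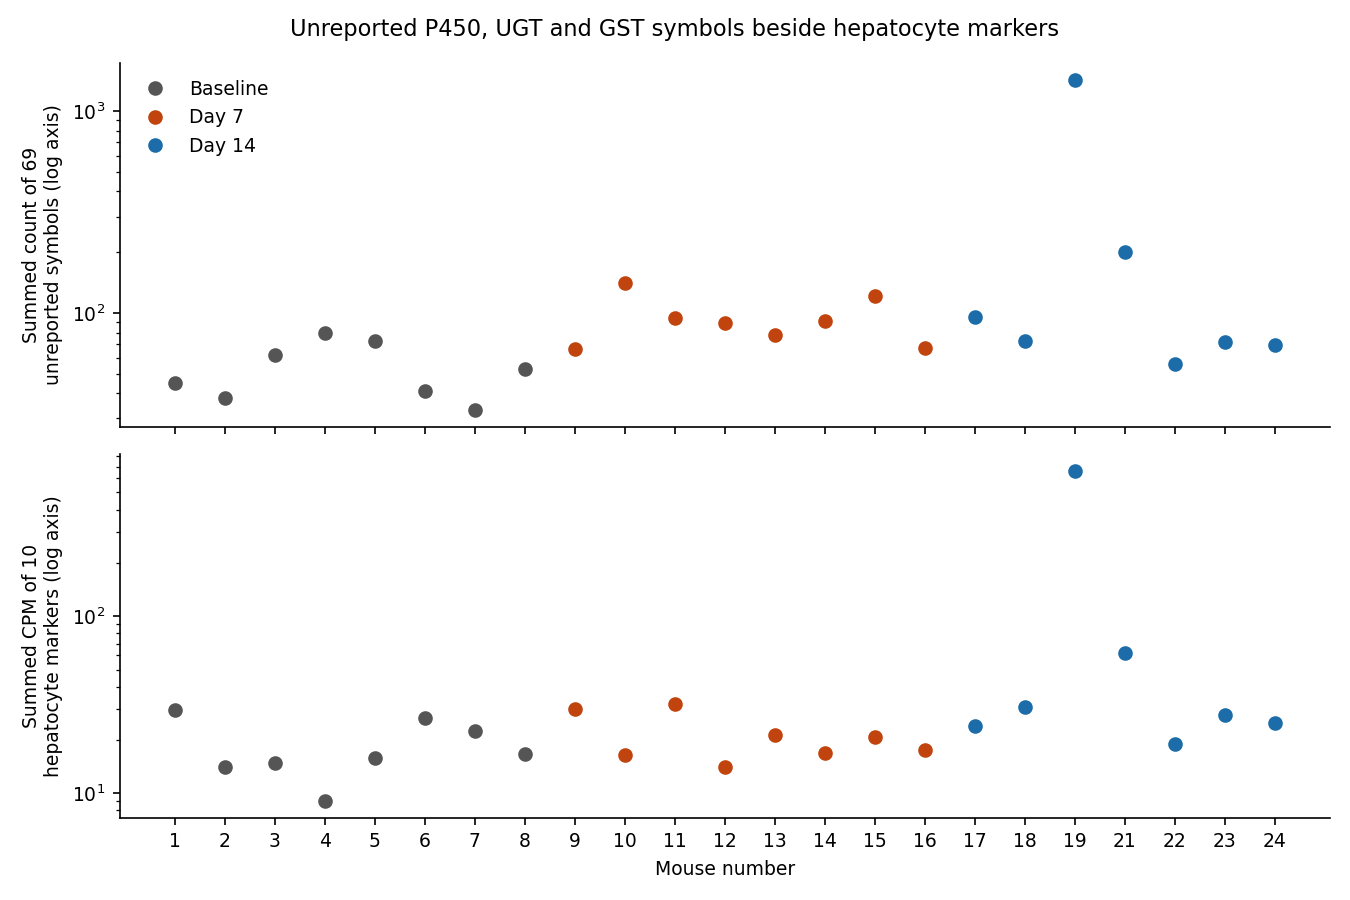
Summed count of the 69 P450, UGT and GST symbols under the count rule (top) and summed CPM of 10 hepatocyte markers (bottom) in each mouse, both on log axes, coloured by group. Mouse 19 is highest in both panels, with 1435 counts and 663 CPM, and mouse 21 is second. In the other mice most of the lower-panel sum is *Ttr*.

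The members nearest the count rule were *Cyp2r1* (at least 10 counts in 9 mice), *Cyp4b1* and *Cyp2e1* (12 mice each) inside it, and *Cyp2j9* (6 mice), *Ugt8a* and *Cyp4f18* (5 mice each) outside it. The first had a median of 8 counts and the last 3 had medians of 7, 7 and 4.

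Other genes of the same pathways were counted from lists. Of 9 redox partners of P450 and 4 genes of UDP-glucuronic acid supply, none was called at day 7. The shares of all genes called were 3.82% higher and 1.31% lower. Median log2 changes of these lists were 0.05 and -0.02. A list of glutathione synthesis and recycling genes, peroxidases, membrane transferases and *Hpgds* had 18 measured genes. Of these, 4 rose at day 7 and none fell, against 3.82% and 1.31% of all genes. The list had 10 positive and 8 negative values, with a median of 0.04 beside 0.02 over all genes. *Hpgds*, the glutathione-dependent prostaglandin D synthase, rose by 1.12 ± 0.28 on the log2 scale (adjusted p = 0.00565). Its symbol lies outside the names by which the GST members were taken. *Gpx8*, a peroxidase of the endoplasmic reticulum, rose by 0.66 ± 0.15 (adjusted p = 0.00244), *Gpx3*, the secreted peroxidase, by 0.72 ± 0.24 (adjusted p = 0.0368) and *Mgst1*, a membrane transferase, by 0.67 ± 0.23 (adjusted p = 0.0455). *Hpgds* ranged from 0.35 to 1.97 CPM at baseline and 1.04 to 3.37 at day 7, so these groups overlapped.

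None of 15 NRF2 targets, 21 receptors and factors of the pathway and 7 conjugate exporters was called at day 7 or day 14. Of all genes, 3.82% were called higher and 1.31% lower at day 7, and 0.787% were called at day 14. With the adjusted p alone, 1 NRF2 target passed at each time. At day 7, 2 receptors or factors passed it, against 18.6% of all genes. Among 10 measured genes of retinoid handling 1 was called at each time, against 3.82% of all genes higher at day 7 and 0.787% called at day 14. It was *Dhrs9*, a retinol dehydrogenase, which rose by 1.37 ± 0.23 (adjusted p = 0.000146) and 0.95 ± 0.24 (adjusted p = 0.0373) on the log2 scale. Its level was 0.61 to 2.26 CPM at baseline, against 2.20 to 4.31 at day 7 and 1.63 to 3.20 at day 14. Of 18 other oxidation and conjugation enzymes 2 were called at day 7 and 1 at day 14, read against the same shares. *Sult1a1*, a phenol sulfotransferase, rose at day 7 by 0.75 ± 0.18 (adjusted p = 0.00428) and *Tpmt*, the thiopurine methyltransferase, by 0.79 ± 0.27 (adjusted p = 0.0399). *Akr1c14*, a hydroxysteroid dehydrogenase, rose at day 14 by 0.92 ± 0.22 (adjusted p = 0.0214). Without mouse 19 the day 14 values of *Dhrs9* and *Akr1c14* were 0.92 ± 0.25 and 0.84 ± 0.22, with adjusted p of 0.0933 and 0.08, so both day 14 calls ended. They also ended without mouse 8 or mouse 24. Between the sexes 1 listed gene was called, *Esr1*, the oestrogen receptor alpha, which was higher in females by 0.94 ± 0.19 on the log2 scale (adjusted p = 0.0131).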

How the data were processed

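The files deposited hold raw fragment counts by gene symbol for 23 mice. The authors depleted total RNA of ribosomal RNA, sequenced stranded paired reads, trimmed them with Trim Galore and Cutadapt, aligned them to mm10 with STAR (version 2.5.2a per the submitters' notes) and counted uniquely mapped fragments with featureCounts. The strand setting of the counting and the handling of shared exons are not given in the sources used here, so overlapping and antisense genes may share fragments.

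After TMM scaling, edgeR 4.0.16 in R 4.3.3 (with limma 3.58.1) was run with filterByExpr by time point, estimateDisp, robust glmQLFit and glmQLFTest, with all 23 mice fitted together and sex as covariate. The sex interaction and the changes within each sex came from 1 fit of all 23 mice with 6 groups of sex and time. That fit tested 12933 genes, and neither sex was fitted alone. P-values are two-sided and Benjamini-Hochberg adjusted over all genes tested. A call needs an adjusted p no higher than 0.05 together with a change of 1.5-fold or more (adjusted p alone for the interaction). The SE was derived from the fold change and its F statistic. P-values test a difference between groups against the spread between mice. CPM is the count as a share of the TMM-scaled total times 1000000, divided by exon length in GENCODE M21 for levels per kb. Steps were tested on simulated data.

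Members and gene lists were chosen with earlier results of these data known. Named members are those with an adjusted p of at most 0.05 in any comparison, the 4 of highest level per length and the largest change each way at day 7 in each family, and the 3 nearest the count rule on each side. Other members were named after their values were seen. Alternatives were DESeq2 1.42.0, other scalings, other filters, no covariate, only the mice compared, and leaving out each mouse. Fits without mice 19 and 21, and without mice 5, 10, 15 and 21, were added after seeing the data. Counts of 0 and small counts are limited by counting error, and 3 counts in a library (the floor) was taken as the limit.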

Additional observations from a re-analysis of the deposited data

Results flagged for a closer look

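In groups of 7 or 8 mice, the highest and the lowest log2 CPM of the 24 named genes were compared with Dixon's critical value, over 72 groups. Chance flags about 1 in 20 groups, and 4 were flagged. *Cyp4b1* at baseline had mouse 5 far above the others, at 57 counts against 6 to 15, with a gap of 0.668 of the group's range. *Gsto1* at baseline had the same mouse below the others, at 16.1 CPM against 20.0 to 24.3 (gap 0.527). At day 14 mouse 21 was low for *Cyp39a1*, at 71.3 CPM against 85.6 to 98.2 (gap 0.573), and for *Gsto1*, at 17.7 CPM against 20.2 to 22.2 (gap 0.576). Mice 5 and 21 are 2 of the 4 mice with high lymphocyte marker levels, whose part in these values was not tested.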

How the results depend on the processing

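*Ugt2b34* at both times and *Cyp3a13* at day 7 kept their direction and an adjusted p of at most 0.05 in every alternative fit. *Cyp2d22* did so at day 7 too, though its fold change fell under 1.5 without mouse 14. Within males, in the fit with 6 groups, *Ugt2b34* missed that limit at day 14 (adjusted p = 0.214). Within females, in the same fit, *Cyp2d22* missed it at day 7 (adjusted p = 0.236). Total count scaling called 18 members at day 7 (17 higher, 1 lower) and 3 at day 14. Over all genes the share of day 7 calls that were higher went from 74.4% to 99.4%. *Gstt1* changed sign there, to 0.12, still under that scaling's median of 0.48 over all genes. The adjusted p alone passed 5 members at day 7. Leaving out each mouse gave 2 to 7 members at day 7 (7 without mouse 4), 1 at day 14 and 0 in the other comparisons. *Gstt1* and *Gstm7* lost the adjusted p in 12 and 15 of 23 of these fits. The rule kept 25 symbols with 10 counts in every mouse and 109 with 1 count in any mouse. Of the listed pathway genes 7 were called at day 7. That became 41 with total count scaling, 3 with 10 counts in every mouse, and 4 to 8 when 1 mouse was left out (4 without mouse 1 or mouse 7). At day 14 the 2 called became 8 with total count scaling, 1 with no filter, with 10 counts in every mouse or without mice 5, 10, 15 and 21, and 0 without mice 19 and 21. Leaving out 1 mouse gave 0 to 2 there, with 0 without mouse 8, 19 or 24 and 1 without mouse 1, 2, 5, 6 or 7. Between day 7 and day 14 total count scaling called 3 in place of 0. Between the sexes the 1 called became 3 with DESeq2, 0 with 10 counts in every mouse, 2 without mice 19 and 21, and 1 to 2 with 1 mouse left out (2 without mouse 1 or mouse 13). No paired analysis was possible because no mouse number occurs in more than 1 group. Members under about 20 counts per mouse, such as *Cyp2r1* and *Ugt2b35*, are limited by depth.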
